A study of Mus musculus with 20 samples.

Results

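The genes described here are 10 serine proteases and protease inhibitors of epithelial cells, out of 46603 gene identifiers counted in mouse liver: Prss8, Prss22, Prss23, St14, Tmprss2, Tmprss4, Tmprss6 and Hpn, which encode proteases, and Spint1 and Spint2, which encode inhibitors. Prss8 and Prss22 were picked because they rose in Eed knockout liver after partial hepatectomy. Their values in every comparison that uses that group are therefore given as a description, with no test, and tests are given for the other 8 genes. These 8 genes and the gene lists below were also chosen with earlier results of these data known. Their counts set beside the share of all genes are therefore a description too. All 10 genes were found by their symbols and passed the filter on low counts, Prss22 only through knockout liver after partial hepatectomy. With so few reads elsewhere, Prss22 could hardly be called in comparisons without that group.

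Liver RNA was sequenced from 5 wild-type male mice (strain C57BL6/J, written WT) and 5 male EedHepKO mice (written KO), all aged 2 months. KO mice carried Alb:Cre and loxP sites around exons 3 and 6 of Eed, a subunit of Polycomb repressive complex 2, so the deletion is driven by the albumin promoter. The labels place the loss in hepatocytes, and whether other liver cells, such as those of the bile ducts, kept the gene was not tested. Each mouse underwent partial hepatectomy (PHx), the surgical removal of liver lobes after which the remnant regrows. The removed lobes 1, 2 and 3 gave the baseline libraries, and lobes 4, 5 and 6, collected later, gave the libraries after PHx. WT libraries after PHx came from mouse 1 at 30 h, mice 2 and 3 at 40 h, and mice 4 and 5 at 48 h. KO libraries after PHx came from mouse 12 at 30 h, mice 10 and 11 at 40 h, and mice 7 and 8 at 48 h. The 4 groups therefore held 5 libraries each, and 9 mice carry a number at both stages, since WT baseline library 1 has none in its title. Genotype cannot be told apart from colony of origin, because the WT mice were bought from a vendor, and the response to PHx cannot be told apart from lobe.

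Total counts lay between 21634890 and 30461351 per library. Eed itself was at 14.6 to 23.2 CPM (counts scaled to a TMM-adjusted library total of 1e+06) in the 10 WT libraries and at 2.75 to 7.52 CPM in the 10 KO libraries, with no overlap. All 10 hepatocyte markers were detected in every group. Their summed level was 131545 to 151220 CPM in WT and 78339 to 105246 CPM in KO at baseline. After PHx it was 77547 to 121497 CPM in WT and 39961 to 95050 CPM in KO. TMM factors, by which these sums are divided, were 0.67 to 0.806 in WT and 0.983 to 1.187 in KO at baseline. The scaling itself thus lowers the KO sums against WT, and its part in the difference was not tested. KO libraries 8 and 11 after PHx had the highest TMM factors (1.498 and 1.51) and stood apart from the other 3 of their group in several genes below.

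Membrane-anchored serine proteases cut proteins at the surface of epithelial cells. In many epithelia matriptase (St14) and prostasin (Prss8) activate each other, and both are held in check by the Kunitz-type inhibitors HAI-1 (Spint1) and HAI-2 (Spint2). Hepatocytes carry a different pair, hepsin (Hpn) and matriptase-2 (Tmprss6); matriptase-2 cleaves hemojuvelin and so lowers hepcidin, the hormone that limits iron uptake.

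The promoters found for 5 of the 10 genes are shown first, to set genes that were higher in KO (Spint1 and Tmprss2) beside genes that were not. RefSeq (GRCm38.p6) gave a window of 250 bases before to 50 bases after the transcription start for Prss23, Spint1, Spint2, Tmprss2 and Hpn. The windows shown lie at chr2:119237110-119237409 on the plus strand (Spint1), and on the minus strand at chr16:97611146-97611445 (Tmprss2), chr7:29281928-29282227 (Spint2), chr7:89527138-89527437 (Prss23, 1 of its 7 windows) and chr7:31115277-31115576 (Hpn, the nearer of its 2 windows to the GENCODE start). Capitals mark CAGGTG on either strand (CACCTG on the strand printed), an E-box of the kind that Snail and Zeb family proteins are known to bind.
Spint1: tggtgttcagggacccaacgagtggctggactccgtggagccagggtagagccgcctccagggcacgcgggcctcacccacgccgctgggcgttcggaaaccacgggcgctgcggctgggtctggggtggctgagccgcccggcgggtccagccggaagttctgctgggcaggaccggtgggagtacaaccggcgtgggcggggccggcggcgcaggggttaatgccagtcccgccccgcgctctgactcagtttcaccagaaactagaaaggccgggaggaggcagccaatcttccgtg
Tmprss2: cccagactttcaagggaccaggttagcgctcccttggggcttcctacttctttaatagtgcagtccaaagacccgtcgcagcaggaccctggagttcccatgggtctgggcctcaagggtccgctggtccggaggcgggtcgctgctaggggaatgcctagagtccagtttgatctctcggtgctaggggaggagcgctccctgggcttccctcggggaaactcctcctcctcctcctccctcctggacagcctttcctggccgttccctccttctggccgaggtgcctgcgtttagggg
Spint2: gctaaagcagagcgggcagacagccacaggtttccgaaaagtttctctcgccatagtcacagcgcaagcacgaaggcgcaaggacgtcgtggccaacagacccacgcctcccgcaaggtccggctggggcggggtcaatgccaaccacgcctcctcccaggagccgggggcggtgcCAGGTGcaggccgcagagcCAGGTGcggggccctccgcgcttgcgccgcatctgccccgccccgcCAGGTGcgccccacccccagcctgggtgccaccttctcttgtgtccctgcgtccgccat
Hpn: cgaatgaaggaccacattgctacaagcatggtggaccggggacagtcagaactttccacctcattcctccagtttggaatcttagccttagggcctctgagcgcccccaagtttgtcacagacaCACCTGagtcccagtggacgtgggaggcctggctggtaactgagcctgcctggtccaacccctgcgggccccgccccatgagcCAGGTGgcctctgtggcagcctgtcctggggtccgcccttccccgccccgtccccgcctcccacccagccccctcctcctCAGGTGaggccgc
Prss23: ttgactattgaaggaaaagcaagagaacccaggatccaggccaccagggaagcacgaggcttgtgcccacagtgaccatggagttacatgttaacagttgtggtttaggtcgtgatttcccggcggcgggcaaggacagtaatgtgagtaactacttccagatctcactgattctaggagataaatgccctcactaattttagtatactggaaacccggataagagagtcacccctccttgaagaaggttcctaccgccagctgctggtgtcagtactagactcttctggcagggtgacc
The Spint2 and Hpn windows held 3 such E-boxes each, and the Spint1, Tmprss2 and Prss23 windows held 0. Prss23, which was not called higher in KO, therefore shared its count of 0 with the 2 genes that were. Of all 32817 windows of 300 bases in the table, 20.2% held at least 1 E-box and 0.366% held 3 or more. The Grainyhead-like motif AACCNGTT, searched on both strands, was in none of the 5 windows and in 2.1% of all. CpG dinucleotides numbered 28 in Spint1, 26 in Spint2, 13 in Tmprss2, 11 in Hpn and 7 in Prss23, against a median of 7 per window. The motifs were chosen after the sequences had been seen, and the matches are a description of the letters only.

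At baseline St14, Spint1, Tmprss2 and Tmprss4 were higher in KO liver, by 3.83-fold to 13.6-fold, and none of the 10 genes was lower. After PHx the same 4 genes were higher in KO than in WT, Spint1 by 146-fold and St14 by 52.4-fold, and Hpn was lower by 1.5-fold. With PHx, Tmprss2 rose and Tmprss6 fell in both genotypes, while in KO St14 and Spint1 also rose and Hpn fell. Spint2 and Prss23 did not pass this test in any comparison, though each did at baseline under some other settings given below. These calls are from the edgeR quasi-likelihood test with Benjamini-Hochberg adjustment over 14661 genes, called at an adjusted p under 0.05.

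**Figure D1:**
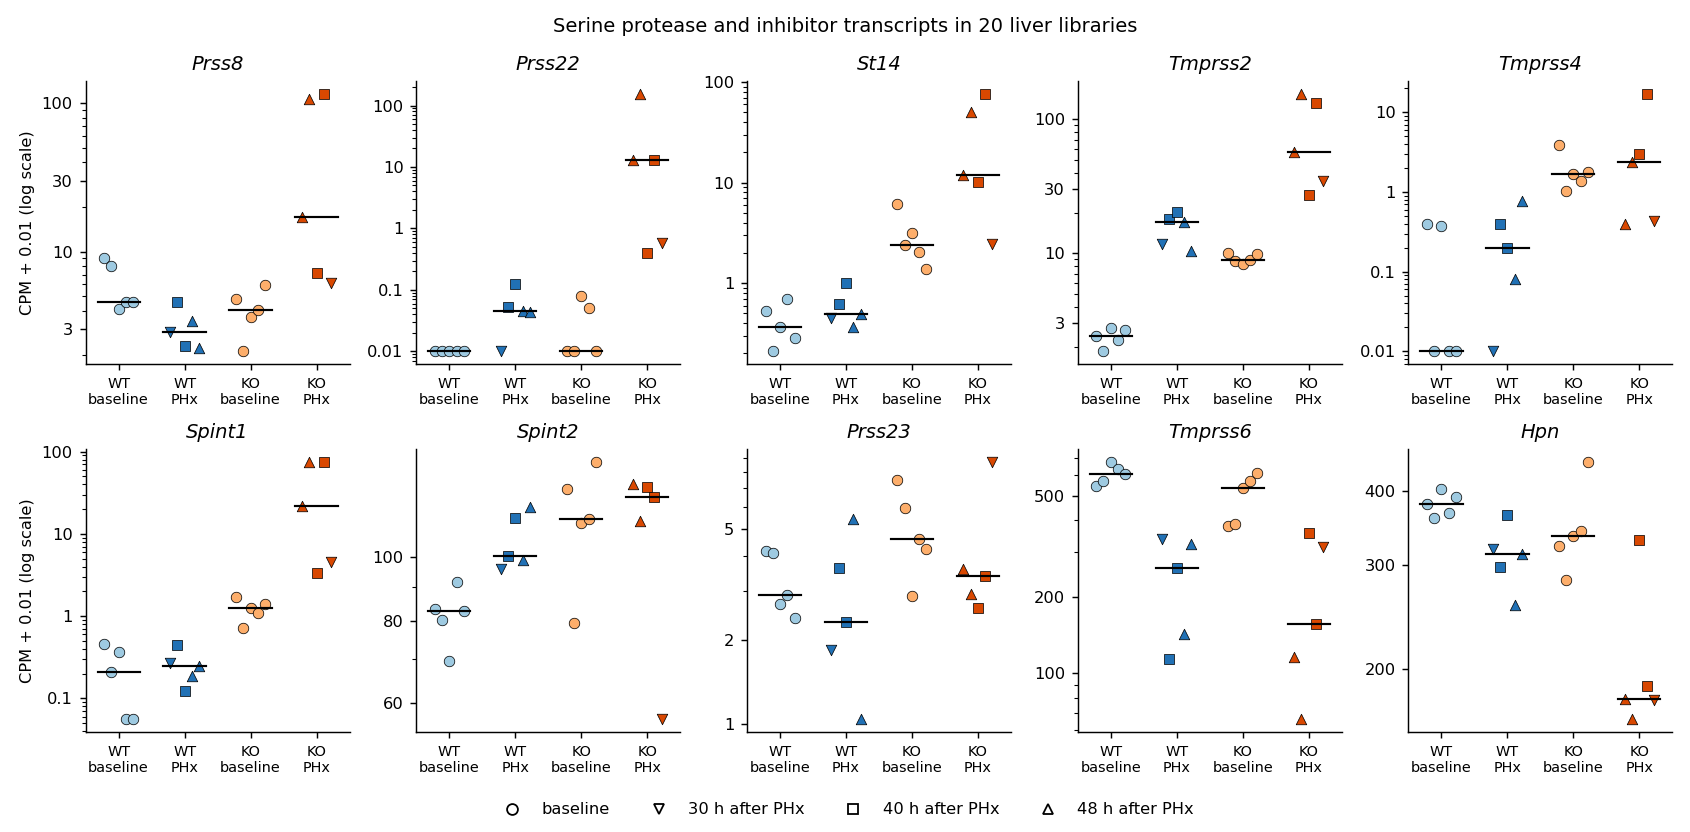
Level of each of the 10 genes in each of 20 libraries, in CPM with 0.01 added so that libraries with no count can be drawn (log axis). Points are single libraries, shapes give the hours after PHx, and bars are group medians. In Prss8, Prss22, St14, Spint1 and Tmprss2 every KO library after PHx lay above every WT library after PHx, with libraries 8 and 11 at or near the top.

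Per kilobase of exon, a scale on which genes can be compared, WT baseline liver was dominated by the hepatocyte proteases and by Spint2. Median levels there were 180.3 CPM per kb for Tmprss6, 92.6 for Hpn and 18.1 for Spint2. Prss8 followed at 2.45, Prss23 at 0.767, Tmprss2 at 0.329, Spint1 at 0.0723 and St14 at 0.0472 CPM per kb, while the medians of Tmprss4 and Prss22 were 0. In KO liver after PHx, Tmprss6 and Hpn were at medians of 46.7 and 43.3 CPM per kb, and Spint2 was at 26.99. The picked genes Prss22 and Prss8 were at 9.75 and 9.26 there, Spint1 and Tmprss2 at 7.91 and 7.78, and St14, Tmprss4 and Prss23 at 1.56, 0.916 and 0.9002. In these bulk libraries, fewer cells of a type and less RNA per cell cannot be told apart.

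Prss8 encodes prostasin, a protease tethered to the membrane by a lipid anchor that is known for activating the epithelial sodium channel. The gene lies at chr7:127925716-127930104 (mm10, minus strand). In WT it stood at 9.10, 7.95, 4.07, 4.54 and 4.54 CPM at baseline in libraries 1 to 5, and at 2.88, 4.57, 2.28, 3.37 and 2.23 CPM after PHx. In KO mice 7, 8, 10, 11 and 12 it stood at 4.78, 2.11, 3.62, 4.03 and 5.92 CPM at baseline. The same mice had 17.1, 107.7, 7.17, 115.8 and 6.15 CPM after PHx. All 5 of these last libraries lay above all WT libraries after PHx and all KO libraries at baseline, while mice 10 and 12 were below WT baseline libraries 1 and 2. Mice 8 and 11 held 88.0% of the group's summed level.

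The comparisons that Prss8 was not picked on did not pass the test. The log2 fold change of KO against WT at baseline was -0.56 (SE 0.62, edgeR adjusted p = 0.582), and that of WT after PHx against WT baseline was -0.98 (SE 0.63, adjusted p = 0.291). The latter passed with only the samples compared in the fit (-0.94, adjusted p = 0.0456), and Prss8 was lower after PHx in 4 of 4 WT mice with libraries at both stages. In the group it was picked on, the fitted log2 fold change was 4.05 (SE 0.69) against WT after PHx and 3.63 (SE 0.68) against KO baseline. Without libraries 8 and 11 these values were 1.73 and 1.34. Exons of Prss8 overlap those of Kat8, a histone acetyltransferase gene on the other strand, and the strand setting of the counting is not stated. Kat8 was lower in KO by 0.62 on the log2 scale at baseline (SE 0.17, adjusted p = 0.0184) and by 0.49 after PHx (SE 0.17, adjusted p = 0.0452). With PHx it fell by 0.62 in WT (SE 0.17, adjusted p = 0.0156) and by 0.49 in KO (SE 0.17, adjusted p = 0.0388). The part of Kat8 reads in the Prss8 values was not tested.

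Prss22 encodes brain-specific serine protease 4, a protease that despite its name is made by airway and other epithelia, and lies at chr17:23993534-23998100 on the minus strand. It was nearly silent outside the group it was picked on. No read was counted in any WT library at baseline, 6 reads were counted over the 5 WT libraries after PHx and 3 over the 5 KO baseline libraries. After PHx, KO mice 7, 8, 10, 11 and 12 had 12.9, 154.6, 0.381, 13.1 and 0.568 CPM, or 431, 7038, 10, 470 and 12 counts. Every one of these lay above the highest other library, at 0.114 CPM, and mouse 8 alone was far above the remaining 4. The ratio of the pooled levels was 1060 against WT after PHx (interval 487 to 2888) and 2097 against KO baseline (interval 717 to 10169); these exact 95% intervals cover counting error only. Without mouse 8 the ratios were 171 (interval 78.2 to 467) and 338 (interval 115 to 1642), and without mice 8 and 11 they were 121 and 240. At baseline both genotypes were at or under 3 counts, so no fold is given. The change with PHx in WT rested on 0 against 6 reads, too few for the test to decide (edgeR adjusted p = 0.543).

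St14 encodes matriptase, a transmembrane protease of surface epithelia and a known activator of prostasin, at chr9:31089402-31131853 on the minus strand. WT levels were low, at 0.520, 0.200, 0.3602, 0.688 and 0.275 CPM at baseline and at 0.436, 0.609, 0.989, 0.354 and 0.481 CPM after PHx, in libraries 1 to 5. KO mice 7, 8, 10, 11 and 12 had 6.17, 2.37, 3.14, 2.04 and 1.36 CPM at baseline and 11.9, 50.8, 10.03, 76.2 and 2.46 CPM after PHx. Every KO library lay above every WT library at either stage, whereas the 2 KO groups overlapped, since mouse 12 after PHx was below mice 7 and 10 at baseline. St14 was higher in KO by a log2 fold change of 2.88 at baseline (SE 0.72, edgeR adjusted p = 0.00981) and of 5.71 after PHx (SE 0.76, adjusted p = 3.1e-05). It rose after PHx in KO by 3.32 (SE 0.67, adjusted p = 0.00227), in 5 of 5 mice. The change in WT was 0.49 (SE 0.74, adjusted p = 0.689). Without KO libraries 8 and 11 the rise in KO was 1.43 (adjusted p = 0.0495), and the difference from WT after PHx was 3.80 (adjusted p = 0.00015).

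Spint1 encodes HAI-1, the inhibitor that binds matriptase, prostasin and hepsin, and lies at chr2:119237362-119249527 on the plus strand. It was counted 20 times over the 5 WT baseline libraries and 31 times over the 5 WT libraries after PHx, where no library exceeded 0.455 CPM. In the same order of mice, Spint1 in KO stood at 1.73, 0.718, 1.24, 1.08 and 1.41 CPM at baseline and 21.9, 75.4, 3.32, 75.1 and 4.59 CPM after PHx. The KO libraries lay above all WT libraries at each stage, and all 5 KO libraries after PHx lay above all 5 KO baseline libraries. Against WT, Spint1 in KO was higher by 2.53 on the log2 scale at baseline (SE 0.82, edgeR adjusted p = 0.0406) and 7.19 after PHx (SE 0.87, adjusted p = 9.5e-06). Spint1 rose after PHx in KO by 4.86 (SE 0.75, adjusted p = 0.000518), and the change in WT was 0.20 (SE 0.91, adjusted p = 0.908). The 2 comparisons with KO after PHx held without libraries 8 and 11, at 5.32 (adjusted p = 4.7e-05) and 3.02 (adjusted p = 0.00377). The baseline call rested on few counts: it was lost when any 1 of WT baseline libraries 2, 3, 4 and 5 or KO baseline libraries 7, 10, 11 and 12 was left out, with log2 fold changes of 2.25 to 2.81 and adjusted p of 0.0567 to 0.101.

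Enzyme and inhibitor did not keep 1 ratio. Per kilobase of exon, St14 was at a median of 0.916 times Spint1 in KO baseline libraries (range 0.350 to 1.30) and of 0.244 times in KO libraries after PHx (range 0.194 to 1.10). The ranges overlapped: after PHx mouse 10 was at 1.10 and mouse 11 at 0.368, both above the lowest baseline ratio. In WT the ratio ran from 0.362 to 5.43 on few counts. Spint2 was more abundant per kilobase than Prss8 in all WT and KO baseline libraries, where the ratio of Prss8 to Spint2 was at most 0.269. In KO after PHx the median ratio was 0.328 and the lowest 0.138, while mice 8 and 11 were at 2.34 and 2.32. The ratio of Prss8 to Spint1 went the other way, with 4.14 to 6.28 in KO at baseline and 1.17 to 3.23 in KO after PHx. Both ratios use the level that Prss8 was picked on and are a description only.

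**Figure D2:**
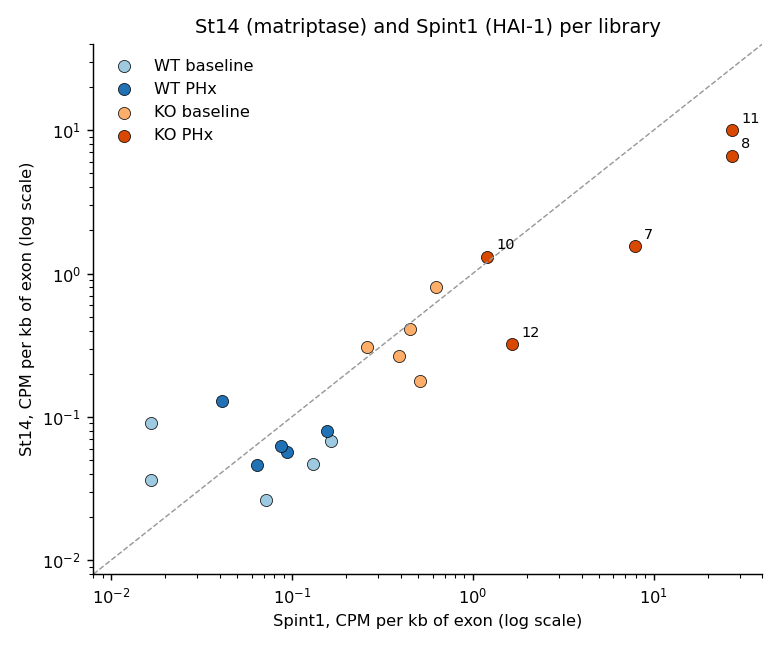
Level of St14 against Spint1 in each of 20 libraries, both in CPM per kb of exon (log axes), with the dashed line marking equal levels. Numbers give the KO mouse after PHx; 4 of these 5 libraries lie below the line and mouse 10 lies just above it.

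Spint2 encodes HAI-2, the second inhibitor of the pair and the one that hepatocytes express, at chr7:29256323-29281912 on the minus strand. Its level was 69.5 to 91.5 CPM in WT at baseline, 95.8 to 118.6 CPM in WT after PHx and 79.3 to 139.1 CPM in KO at baseline. In KO after PHx, mice 7, 8, 10 and 11 had 128.6, 113.2, 127.4 and 123.0 CPM and mouse 12 had 56.7 CPM. The 5 WT libraries after PHx lay above the 5 at baseline, but the log2 fold change of 0.37 did not pass the test (SE 0.19, edgeR adjusted p = 0.173). The 95.8 to 118.6 CPM of WT after PHx lay within the range of KO after PHx. The log2 fold change of KO against WT was 0.49 at baseline (SE 0.19, adjusted p = 0.088), and 0.06 after PHx (SE 0.19, adjusted p = 0.856). The baseline difference passed with DESeq2 (adjusted p = 0.0413), with only the samples compared (0.51, adjusted p = 0.00848), under scaling by library size (0.97, adjusted p = 0.00615), without KO baseline library 8 (adjusted p = 0.0408) and without KO library 12 after PHx (adjusted p = 0.0216). The change with PHx in WT passed with only the samples compared (0.41, adjusted p = 0.0282) and under scaling by library size (0.74, adjusted p = 0.0258).

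Tmprss2, a transmembrane protease of many epithelia that is best known for cutting viral surface proteins, had the most regular pattern of the 10 genes (chr16:97564682-97611195, minus strand). WT libraries 1 to 5 had 2.41, 1.85, 2.78, 2.25 and 2.66 CPM at baseline and 11.8, 18.2, 20.2, 17.1 and 10.4 CPM after PHx. KO mice 7, 8, 10, 11 and 12 had 9.99, 8.75, 8.31, 8.93 and 9.81 CPM at baseline and 56.8, 154.4, 27.4, 133.1 and 34.8 CPM after PHx. No 2 of the 4 groups overlapped. It rose after PHx in 4 of 4 WT mice and 5 of 5 KO mice. The log2 fold change with PHx was 2.70 in WT (SE 0.39, edgeR adjusted p = 0.000145) and 3.15 in KO (SE 0.38, adjusted p = 0.000173). KO exceeded WT by 1.94 at baseline (SE 0.38, adjusted p = 0.00166) and by 2.39 after PHx (SE 0.37, adjusted p = 0.000127). Without KO libraries 8 and 11 the rise in KO was 2.14 (adjusted p = 0.00024) and the difference after PHx was 1.36 (adjusted p = 0.00082). The difference between the 2 responses was 0.45 (SE 0.51, adjusted p = 0.766) and changed sign to -0.62 without KO libraries 8 and 11.

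Tmprss4, a related protease that is high in several epithelial tumours, was rare in WT (chr9:45172726-45204092, minus strand). It had 13 counts over the 5 WT baseline libraries, 3 of which had none, and 38 over the WT libraries after PHx. In KO mice 7, 8, 10, 11 and 12 it had 3.95, 1.01, 1.69, 1.37 and 1.78 CPM at baseline and 0.390, 2.37, 2.98, 17.1 and 0.426 CPM after PHx. At baseline all 5 KO libraries lay above all 5 WT libraries, whereas after PHx mice 7 and 12 fell within the WT range, which reached 0.755 CPM. KO exceeded WT by a log2 fold change of 3.76 at baseline (SE 1.18, edgeR adjusted p = 0.0346) and of 4.01 after PHx (SE 1.11, adjusted p = 0.0124). The baseline call was lost without WT baseline library 2, 4 or 5 or KO baseline library 7 or 10 (3.39 to 3.81, adjusted p of 0.0526 to 0.0834). The call after PHx was lost without KO library 11 (2.38, adjusted p = 0.0864) and with only the samples compared (4.08, adjusted p = 0.0615).

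Hpn encodes hepsin, an abundant hepatocyte protease known for activating hepatocyte growth factor, at chr7:31098725-31115290 on the minus strand. WT libraries 1 to 5 had 379.7, 360.8, 403.4, 366.8 and 390.9 CPM at baseline and 318.8, 297.4, 364.3, 256.9 and 312.8 CPM after PHx. KO mice 7, 8, 10, 11 and 12 had 322.8, 282.2, 336.2, 342.5 and 448.5 CPM at baseline and 177.6, 164.2, 330.0, 187.0 and 177.1 CPM after PHx. In KO after PHx, 4 libraries were below all 15 others and mouse 10 stayed within the range of the rest. Hpn was lower after PHx in 4 of 4 WT and 5 of 5 KO mice, and the fall passed the test in KO, at -0.74 on the log2 scale (SE 0.19, edgeR adjusted p = 0.00724), but not in WT, at -0.29 (SE 0.18, adjusted p = 0.275). With only the samples compared, the KO call was lost (-0.72, adjusted p = 0.0524). The test of the difference between the 2 falls gave -0.45 (SE 0.26, adjusted p = 0.469). KO against WT after PHx was -0.58 (SE 0.19, adjusted p = 0.0273). This last call was lost without WT library 3 or 5 or KO library 7, 8, 11 or 12 after PHx, at -0.58 to -0.50 and adjusted p of 0.0543 to 0.0827. It was also lost with no filter (-0.59, adjusted p = 0.0615) and with only the samples compared (-0.56, adjusted p = 0.158). With scaling by library size alone it was -0.22 (adjusted p = 0.395), a scaling under which the median of all genes moved from -0.01 to 0.37.

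Tmprss6 encodes matriptase-2 and was the most abundant of the 10 genes at baseline (chr15:78439667-78468634, minus strand). WT libraries 1 to 5 had 547.1, 571.3, 679.1, 634.9 and 605.5 CPM at baseline and 336.7, 113.5, 259.5, 142.9 and 322.5 CPM after PHx. KO mice 7, 8, 10, 11 and 12 had 380.5, 388.2, 536.5, 570.2 and 611.2 CPM at baseline and 115.8, 66.0, 355.4, 156.8 and 314.4 CPM after PHx. In both genotypes all libraries after PHx lay below all baseline libraries, and the genotypes overlapped at each stage. The fall was -1.37 on the log2 scale in WT (SE 0.37, edgeR adjusted p = 0.0143) and -1.30 in KO (SE 0.37, adjusted p = 0.0148), with a difference between them of 0.07 (SE 0.52, adjusted p = 0.978). The WT call was lost without WT library 4 after PHx (-1.18, adjusted p = 0.0591), and the KO call without libraries 8 and 11 together (-0.88, adjusted p = 0.0858) and with only the samples compared (-1.26, adjusted p = 0.0537). Of the 10 hepatocyte markers, 4 also fell with PHx in WT (Cyp2e1, Fah, Ttr and Serpina1c) and 3 in KO (Fah, Ttr and Serpina1c), or 1 in KO without libraries 8 and 11 (Serpina1c), where 8.68% and 12.1% of all genes fell. Their part in the falls of Tmprss6 and Hpn was not tested. Neither KO against WT comparison passed, at -0.29 for baseline (adjusted p = 0.636) and -0.22 after PHx (adjusted p = 0.699).

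Prss23, which encodes a secreted serine protease, had no comparison that passed the test (chr7:89507783-89527187, minus strand). Its level was 2.39 to 4.16 CPM in WT at baseline, 1.03 to 5.42 CPM in WT after PHx, 2.86 to 7.47 CPM in KO at baseline and 2.59 to 8.71 CPM in KO after PHx. All 4 groups overlapped, and KO mouse 12 after PHx was the highest library. The largest log2 fold change was 0.63 in KO against WT at baseline (SE 0.41, edgeR adjusted p = 0.315), which passed with library size alone (1.14, adjusted p = 0.0385), a scaling under which the median of all genes there moved from -0.03 to 0.45. The gene lies 427467 bases from Eed on chromosome 7.

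**Figure D3:**
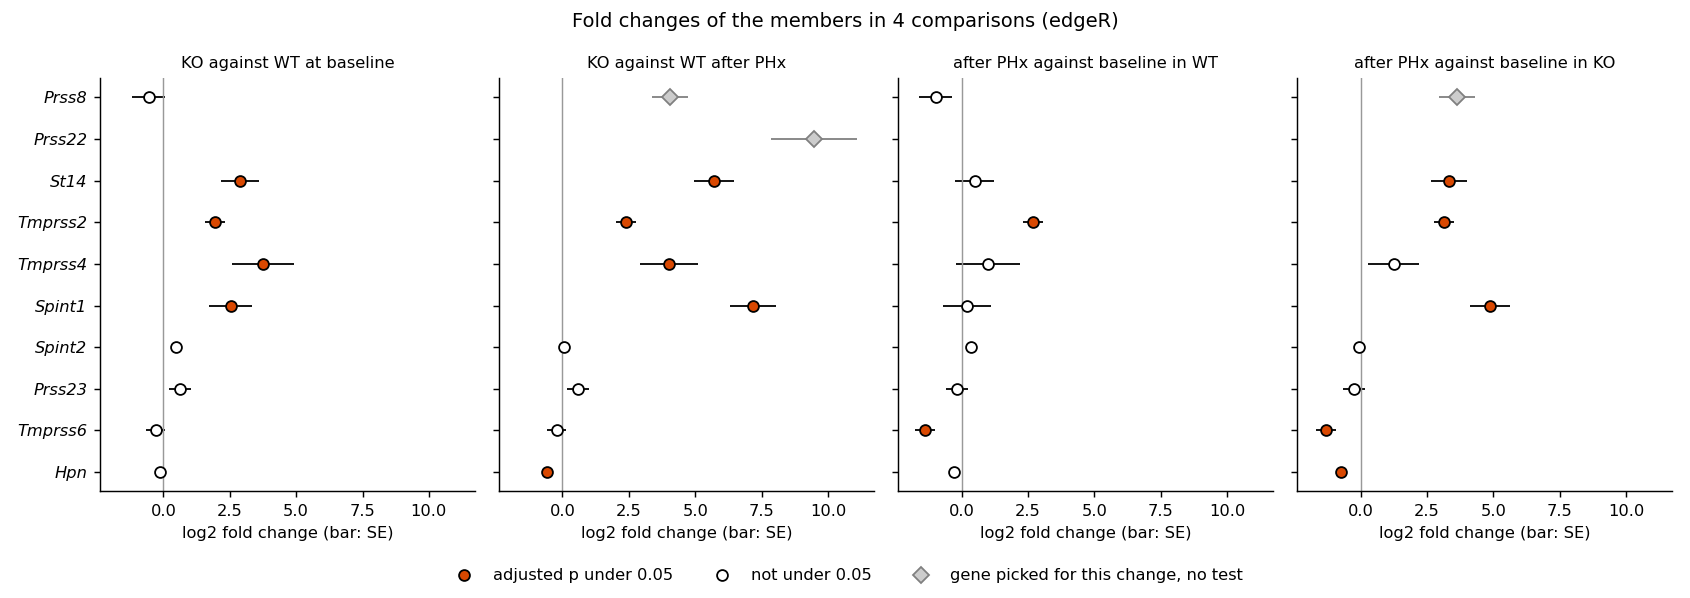
Fitted log2 fold change (points) with its standard error (bars) for each gene in 4 comparisons of 5 against 5 libraries. Filled circles passed an adjusted p of 0.05, open circles did not, and grey diamonds are Prss8 and Prss22 in the comparisons they were picked on; Prss22 is shown only against WT after PHx, since the other reference groups were at or under 3 counts.

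Counted over the comparisons, 4 of the 10 genes were called at baseline between the genotypes, all higher in KO, where 16% of all 14661 tested genes were called, 11.1% higher and 4.89% lower. The median log2 fold change of the 10 was 1.29, against -0.03 over all tested genes. Without the 2 picked genes, 4 of 8 were called, with the same median. Prss22, which passed the filter only through KO after PHx, had too few reads to be called here or with PHx in WT. After PHx, 5 of the 8 genes not picked on this comparison were called (4 higher, 1 lower), where 24.2% of all genes were called, 16% higher and 8.2% lower; their median was 1.48 against -0.01. Without KO libraries 8 and 11 the count was 3 of 8, since Tmprss4 (2.13, edgeR adjusted p = 0.171) and Hpn (-0.43, adjusted p = 0.152) no longer passed, against 16.5% of all genes. With PHx in WT, 2 of 10 were called (Tmprss2 higher, Tmprss6 lower), where 20.1% of all genes were called (11.4% higher, 8.68% lower), a share near that background. With PHx in KO, 5 of 8 were called (3 higher, 2 lower), where 29.5% of all genes were called (17.5% higher, 12.1% lower). The count was 4 of 8 without libraries 8 and 11, against 23% of all genes.

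Groups that did not overlap were counted in the same way. At baseline, all KO libraries lay above all WT libraries for 4 of the 10 genes, against 15.6% of all genes, and none lay wholly below, against 12.2%. After PHx this held for 3 of the 8 genes not picked, against 7.05% of all genes; none lay wholly below, against 2.97%. With PHx in WT, 2 of 10 genes lay wholly above baseline (6.91% of all genes) and 1 wholly below (10.9%). With PHx in KO, 2 of 8 lay wholly above (6.19%) and 1 wholly below (7.73%).

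**Figure D4:**
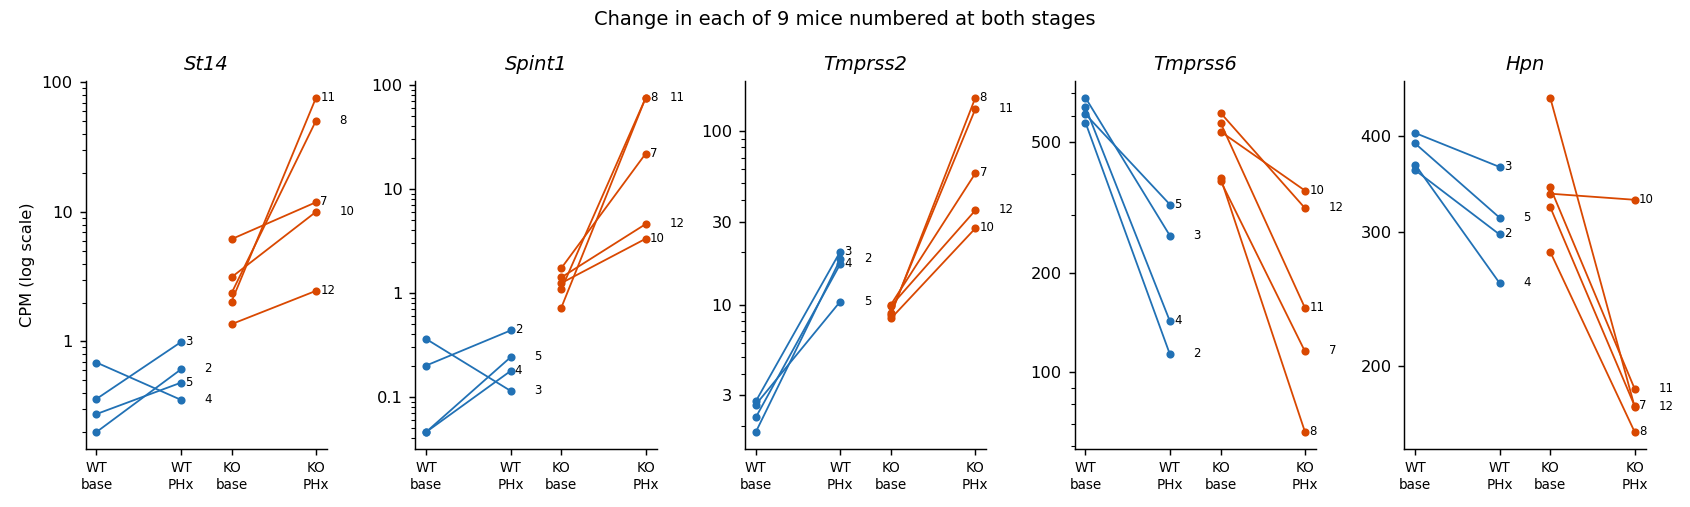
Level in CPM (log axis) at baseline and after PHx in the 4 WT and 5 KO mice whose number appears at both stages, for 5 of the genes; numbers give the mouse. Tmprss2 rises and Tmprss6 and Hpn fall in all 9 mice, while St14 and Spint1 rise in 5 of 5 KO mice and 3 of 4 WT mice.

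The test of the difference between the responses to PHx asks whether the genotypes responded unequally. None of the 8 genes passed it with edgeR, where 0.389% of all tested genes did (0.164% with a higher and 0.225% with a lower response in KO). Spint1 came nearest, at a log2 difference of 4.66 (SE 1.18, unadjusted p = 0.000805 and adjusted p = 0.0881 with edgeR), followed by St14 at 2.83 (SE 0.99, unadjusted p = 0.00938 and adjusted p = 0.214 with edgeR). These 2 of 8 had an unadjusted p under 0.05, as did 1957 of all 14661 genes. DESeq2 called Spint1 (adjusted p = 0.00137), as did edgeR without KO library 10 (4.95, adjusted p = 0.0135) or 12 (4.94, adjusted p = 0.0438) after PHx. Without libraries 8 and 11 the differences were 2.77 for Spint1 (adjusted p = 0.20) and 0.88 for St14 (adjusted p = 0.611). For Tmprss4 the difference was 0.25 and turned to -2.24 when each mouse was its own block.

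Libraries 8 and 11 of the KO group after PHx, which come from mice at 48 h and 40 h, carried most of the signal of several genes. They held 92.4% of the group's summed level of Prss22, 83.9% for St14, 83.7% for Tmprss4, 83.5% for Spint1 and 70.7% for Tmprss2, compared with 43.0% for Spint2, 33.9% for Hpn, 29.8% for Prss23 and 22.1% for Tmprss6. In Prss22 most of this share came from mouse 8 alone, since mouse 11 was level with mouse 7, and in Tmprss4 from mouse 11, since mouse 8 was below mouse 10. The other 3 libraries still exceeded all WT libraries after PHx in Prss8 (6.15 to 17.1 CPM), Prss22 (0.381 to 12.9), St14 (2.46 to 11.9), Spint1 (3.32 to 21.9) and Tmprss2 (27.4 to 56.8).

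Markers of other liver cells were read in the same libraries. Their counts stand against 11.1% of all genes called higher and 4.89% lower in KO at baseline, and 16% higher and 8.2% lower after PHx, or 11.3% and 5.18% without libraries 8 and 11. The 12 cholangiocyte markers, genes of bile duct cells, summed to 66.8 to 104 CPM in WT at baseline, 65.3 to 281 in WT after PHx and 113 to 417 in KO at baseline. In KO mice 7, 8, 10, 11 and 12 after PHx they summed to 609, 584, 241, 354 and 149 CPM, so mouse 7 was highest here, while mice 8 and 11 were highest in St14 and Spint1. Of the 9 markers tested, 2 were higher in KO at baseline (Spp1 and Tspan8) and 5 after PHx (Sox9, Krt19, Krt7, Tspan8 and Epcam). In the fit without libraries 8 and 11 these counts were 4 at baseline (Krt19 and Muc1 also) and 3 after PHx (Sox9, Krt19 and Epcam). With PHx, 0 of 9 changed in WT and 3 rose in KO (Krt19, Krt7 and Epcam), where 11.4% and 17.5% of all genes rose. Leaving out libraries 8 and 11 turned this to 2 in WT (Krt19, 1.35, and Krt7, 1.62) and 1 in KO (Epcam), where 14.6% and 14.4% of all genes rose. Sctr was at 0 in WT at baseline, and each of the 12 was counted in the other groups. The 8 stellate cell markers summed to 159 to 257 CPM in WT and 415 to 540 CPM in KO at baseline, with 5 of 8 higher in KO (Col1a1, Col3a1, Dcn, Pdgfrb and Reln). After PHx they summed to 166 to 240 CPM in WT and 280 to 479 CPM in KO. There 3 of 8 were higher in KO (Col1a1, Col3a1 and Dcn), or 4 without libraries 8 and 11. The 10 macrophage markers summed to 135 to 228 CPM in WT and 310 to 404 CPM in KO at baseline (4 of 10 higher: Cd68, Ly6c2, Csf1r and Ccr2). After PHx they summed to 61.3 to 317 CPM in WT and 69.2 to 333 CPM in KO (1 of 10 higher, Csf1r, and 0 without libraries 8 and 11). Of 8 endothelial markers 1, Cdh5, was higher in KO at each stage, and of the 4 lymphocyte and mast cell markers that were tested 0 differed between the genotypes. The hepatocyte markers had 3 of 10 lower in KO at baseline (Cyp2e1, Apoa1 and Serpina1c) and 2 of 10 after PHx (Apoa1 and Serpina1c). With libraries 8 and 11 left out, 0 were lower and 1, Ttr, was higher after PHx (0.64, edgeR adjusted p = 0.0336). The marker genes in these counts were named after their values were seen. The share of these cell types in the results was not tested.

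Few of the nearest relatives of the 10 genes had enough counts to be tested. Of 15 other type II transmembrane serine proteases only Corin, which activates atrial natriuretic peptide, passed the filter on low counts. Corin was at 0 to 0.367 CPM in WT libraries at baseline and at 5.94 to 11.7 CPM in KO, a log2 fold change of 5.99 (SE 0.82, edgeR adjusted p = 5.5e-05), and after PHx it was higher in KO by 5.54 (SE 0.84, adjusted p = 0.0001). The 15 genes summed to 12.8 CPM in KO mouse 8 after PHx, of which Corin made up 2.00 CPM and the untested Tmprss11f 7.25 CPM, and 5 of the 15 were at 0 in that group. Of 24 other Prss and tryptase genes 3 were tested and 1, Prss16, was higher in KO at each stage, from a mean under 1 CPM, while Prss36 fell with PHx in KO (-1.27, SE 0.45, adjusted p = 0.04; 0.061 without libraries 8 and 11). Of 11 other genes with Kunitz inhibitor domains 6 were tested. Of these 1 was higher in KO at baseline, 2 were higher and 1 lower after PHx, and 1 fell with PHx in each genotype, where 16%, 24.2%, 20.1% and 29.5% of all genes were called in the 4 comparisons. App was higher in KO at baseline (1.06, SE 0.17, adjusted p = 0.00019) and after PHx (0.89, SE 0.16, adjusted p = 0.00063), as was Wfikkn1 after PHx (2.29, SE 0.81, adjusted p = 0.0443; 0.1 without libraries 8 and 11). Ambp was lower in KO after PHx (-0.68, SE 0.22, adjusted p = 0.033; -0.35 and 0.255 without libraries 8 and 11), and Tfpi2 fell with PHx in WT (-1.51, SE 0.43, adjusted p = 0.019) and in KO (-2.18, SE 0.44, adjusted p = 0.0024).

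Known substrates, receptors and partners of these proteases formed a list of 16 genes, 14 of them tested. At baseline 3 were higher and 2 lower in KO, after PHx 7 were higher and 3 lower, with PHx in WT 2 rose and 3 fell, and with PHx in KO 7 rose and 4 fell. That is 5, 10, 5 and 11 of 14, where 16%, 24.2%, 20.1% and 29.5% of all tested genes were called. Without libraries 8 and 11, 5 were higher and 1 lower in KO after PHx, and 4 rose and 3 fell with PHx in KO, where 16.5% and 23% of all genes were called. F2rl1, the receptor PAR2 that is cut by matriptase, was at 0 to 0.300 CPM in WT baseline libraries. After PHx, KO mice 7, 8, 10, 11 and 12 had 13.9, 23.5, 2.98, 27.4 and 4.78 CPM of F2rl1, and mice 8 and 11 were again the highest. F2rl1 was higher in KO by 3.82 at baseline (SE 0.83, edgeR adjusted p = 0.0036) and by 4.64 after PHx (SE 0.74, adjusted p = 0.00016), or by 3.63 without these 2 libraries (adjusted p = 0.0025). Cldn7, a tight junction claudin, was higher in KO by 6.06 at baseline (SE 0.88, adjusted p = 9.8e-05) and 7.01 after PHx (SE 0.88, adjusted p = 1.6e-05), or 5.24 without these 2 libraries (adjusted p = 0.0001). Its partner Epcam, a cell surface protein that matriptase cleaves and that is also among the cholangiocyte markers, was higher in KO after PHx by 4.22 (SE 0.66, adjusted p = 0.00014).

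Other genes of the same list, among them a channel subunit and growth factor genes, included both rises and falls. Scnn1a, the sodium channel subunit on the pathway that prostasin activates, fell with PHx by 2.45 on the log2 scale in WT (SE 0.47, edgeR adjusted p = 0.0015) and by 1.85 in KO (SE 0.46, adjusted p = 0.0069). Hgfac, a secreted activator of hepatocyte growth factor that HAI-1 inhibits, fell by 1.43 in WT (SE 0.20, adjusted p = 0.00013) and 1.17 in KO (SE 0.20, adjusted p = 0.00091). Hgf itself rose with PHx in KO by 1.71 (SE 0.47, adjusted p = 0.012; 0.0519 without libraries 8 and 11), with 1.15 in WT not passing (adjusted p = 0.089). Its receptor Met was lower in KO by 0.69 at baseline (SE 0.18, adjusted p = 0.012) and by 0.63 after PHx (SE 0.18, adjusted p = 0.015). Mst1r, the receptor of the related hepsin substrate Mst1, was higher in KO by 2.87 at baseline (SE 0.78, adjusted p = 0.016), and Plaur, the urokinase receptor, rose with PHx by 4.48 in WT (SE 1.01, adjusted p = 0.0047) and 4.51 in KO (SE 0.92, adjusted p = 0.0025).

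The iron pathway in which matriptase-2 acts was covered by 22 genes, 21 of them tested. Of these 2 were higher in KO at baseline, 5 higher and 3 lower after PHx, 2 rose and 3 fell with PHx in WT, and 2 rose and 4 fell with PHx in KO. That is 2, 8, 5 and 6 of 21, where 16%, 24.2%, 20.1% and 29.5% of all tested genes were called. Without libraries 8 and 11, 1 was higher and 2 lower in KO after PHx, and 1 rose and 2 fell with PHx in KO, where 16.5% and 23% of all genes were called. Hjv, which encodes hemojuvelin, was at 67.2, 132, 106, 110 and 112 CPM in WT libraries 1 to 5 after PHx and at 35.9, 31.7, 82.1, 72.7 and 29.4 CPM in KO mice 7, 8, 10, 11 and 12. KO mice 10 and 11 overlapped WT mouse 1, and Hjv was lower in KO, at -1.07 on the log2 scale (SE 0.26, edgeR adjusted p = 0.0052). Hamp, the main hepcidin gene, spread from 9.72 to 2340 CPM over the WT libraries after PHx, and no comparison passed, with 0.33 in WT (adjusted p = 0.81) and 0.42 in KO (adjusted p = 0.71) for the response to PHx. Hamp2, its close copy, whose reads may be shared with Hamp, fell by 4.33 in WT (SE 0.85, adjusted p = 0.0019) and 2.90 in KO (SE 0.78, adjusted p = 0.011; 0.061 without libraries 8 and 11). Bmp6, the iron-responsive ligand of this pathway, did not pass in any comparison. The target Id1 was higher in KO at baseline by 2.21 (SE 0.54, adjusted p = 0.0085) and rose with PHx in WT by 2.39 (SE 0.54, adjusted p = 0.0051), Smad6 was higher in KO by 1.10 at baseline (SE 0.26, adjusted p = 0.0063), and the transferrin receptor Tfrc was lower in KO after PHx by 1.29 on the log2 scale (SE 0.21, adjusted p = 0.00021).

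Epithelial junction genes and their regulators, numbered 30, of which 26 were tested. Of these 8 were higher in KO at baseline and 18 after PHx, with 0 lower at each stage; 6 rose with PHx in WT and 18 rose and 1 fell with PHx in KO. Over all tested genes the shares higher were 11.1% at baseline, 16% after PHx, 11.4% with PHx in WT and 17.5% with PHx in KO. Without libraries 8 and 11, where 27 were tested, 10 were higher and 1 lower in KO after PHx, and 11 rose and 2 fell with PHx in KO, where 11.3% and 14.4% of all genes were higher. Elf3, an epithelial transcription factor, was at 0.13 to 0.596 CPM in WT and 1.69 to 23.9 CPM in KO at baseline, a log2 fold change of 4.87 (SE 0.96, edgeR adjusted p = 0.0018). Klf5, another such factor, passed the filter on low counts only through KO after PHx. It is among the 6 genes called higher with PHx in WT, on few reads. There it went from 1 count to 20 over 5 libraries each (edgeR adjusted p = 0.0129). The ratio of pooled levels was 15.2, with an exact 95% counting interval of 2.43 to 630. In KO it rose by 4.08 on the log2 scale (SE 0.58, adjusted p = 0.00033), or by 2.87 without libraries 8 and 11. Esrp1, an epithelial splicing regulator, was higher in KO after PHx by 7.93 (SE 1.04, adjusted p = 2.5e-05; 7.05 without them). Claudins Cldn4 and Cldn6 were at 260 and 39.4 CPM in KO mouse 8 after PHx and at 181 and 39.4 CPM in mouse 11, against at most 20.2 and 1.68 CPM in the other 3 KO mice. Cdh1, the E-cadherin that hepatocytes share with other epithelia, was higher in KO after PHx by 1.06 (SE 0.28, adjusted p = 0.01), which was 0.63 without libraries 8 and 11 (adjusted p = 0.147). Lad1, an anchoring filament gene, was the 1 gene of this list to pass the test of the difference between responses (2.71, SE 0.57, adjusted p = 0.0418), and did not without libraries 8 and 11 (2.21, adjusted p = 0.118).

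Finally, the tested genes whose pattern over the 20 libraries lay closest to the 2 picked genes were listed, by the mean absolute difference of log2(CPM + 1) after centring each gene. For Prss8 these were Eps8l3 (0.386), Liph (0.414), Cnksr1 (0.415), Itgb4 (0.422) and Nectin4 (0.429). All 5 were low in the other 3 KO libraries after PHx, at 0 to 2.85 CPM, and at 8.10 to 42.4 CPM in libraries 8 and 11. For Prss22 they included Entpd3 (0.3596), Olr1 (0.411) and Epn3 (0.444). The medians of these 3 genes in the WT groups and in KO at baseline were 0 to 0.304 CPM. In KO after PHx they stood at 7.78 to 75.2 CPM in libraries 8 and 11 and at 0.0947 to 15 CPM in the other 3, and the 2 ranges overlapped for Entpd3 (7.78 to 17.3 and 0.305 to 15 CPM).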

How the data were processed

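Bulk poly(A) RNA was sequenced in 20 mouse liver libraries, in 4 groups of 5. What the authors deposited is 1 file per library of whole-number read counts per Ensembl gene, not normalised. Per the labels and the series design text, RNA with an integrity number above 8 went into TruSeq libraries at 1000 ng. Per the submitters' processing notes, the build is mm10 and the tools include FastQC 0.11.5 and Trimmomatic 0.36, whereas the design text names fastp 0.20.0 for trimming. The aligner, counter and strand setting are not given in the sources used here, so overlapping genes on opposite strands cannot be told apart.

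Symbols and exon lengths came from GENCODE M21 (46005 of 46603 identifiers), and promoter windows from RefSeq for GRCm38.p6. One fit over the 4 groups used edgeR 4.0.16 in R 4.3.3, with TMM scaling, filterByExpr (14661 genes) and the quasi-likelihood test, and p-values adjusted by Benjamini-Hochberg over those genes. CPM are counts scaled to a TMM-adjusted library total of 1e+06, and the floor for an unseen gene was 3 counts. The code was tested on simulated data. The members and all gene lists were chosen with earlier results of these data known. From each other list, the called genes named were the up to 3 with the largest absolute change per comparison and a mean of at least 1 CPM, plus 10 fixed names; some genes that these rules name are not reported here.

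Alternatives were DESeq2 1.42.0, library size alone, no filter or a CPM filter, only the samples compared, time points as covariates, each library left out, and a block per mouse. The block rests on the mouse numbers in the titles, which pair baseline and later libraries of 9 mice; residuals of the pairs correlated at -0.075 to 0.205 over 12539 genes. Leaving out KO libraries 8 and 11 together was added after the values were seen. The labels name no batch, and p-values measure the spread between the 5 mice of a group.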

Additional observations from a re-analysis of the deposited data

Results flagged for a closer look

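In 84 groups of 5 libraries screened, 7 held a highest or lowest library set far apart from the other 4. The rule flags about 1 in 20 groups by chance for normally distributed values only. Low or skewed CPM need not follow that rate, and a group with no spread could not be flagged. Among the proteases, Prss22 stood at 154.574 CPM in KO mouse 8 after PHx, in the group it was picked on. Prss23 was high in KO mouse 12 after PHx, at 8.71 CPM, and the same library was low in Spint2, at 56.7 CPM, and high in Bmp6, at 4.21 CPM. Tmprss4 was high in KO mouse 7 at baseline, at 3.95 CPM, and in KO mouse 11 after PHx, at 17.1 CPM. Hpn stayed high in KO mouse 10 after PHx, at 330.049 CPM. The change with PHx differed between the genotypes for the epithelial gene Lad1, by 2.71 on the log2 scale (edgeR adjusted p = 0.0418). Prss8 fell in 4 of 4 WT mice and rose in 5 of 5 KO mice, with a mean difference of 3.04 in log2(CPM + 1); the KO changes were 5.13 and 4.54 in mice 8 and 11 and 1.65, 0.82 and 0.049 in mice 7, 10 and 12. This difference was not tested, because the gene was picked for its rise in KO.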

How the results depend on the processing

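Of the calls on these genes, those of St14 and Tmprss2 held under every alternative run. The number of genes called between genotypes at baseline ran from 2 to 5 when single libraries were left out, and after PHx from 3 to 5; it was 3 of 8 after PHx with only the samples compared and 3 of 8 without KO libraries 8 and 11. With PHx in WT 1 to 2 were called when single libraries were left out and 4 with only the samples compared, and with PHx in KO 3 with only the samples compared. For the difference between responses, 0 to 1 were called when single libraries were left out and 1 with DESeq2. The share of all genes called at baseline was 24.8% with library size alone, 7.65% with no filter and 39.5% with only the samples compared. After PHx it was 14% with no filter and 9.69% with only the samples compared; with PHx it was 9.62% in WT and 15% in KO with no filter. For the difference it ran from 0.147% to 4.74% when single libraries were left out, and was 2.49% with DESeq2, 0.192% with no filter, 0.614% with time covariates and 0.193% without libraries 8 and 11. With the replicate block it was 13.2% with PHx in WT and 0.0467% for the difference; pairing the mice changed no call on these genes. Library size alone moved the share of calls that were higher from 69.5% to 96.9% at baseline and from 66.1% to 92.9% after PHx.

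Signs that turned were all of values that had not passed the test. With library size alone, Tmprss6 was 0.18 at baseline and 0.0309 after PHx, Hpn 0.34 at baseline and 0.0675 with PHx in WT, Prss23 0.17 with PHx in WT, Spint2 0.24 with PHx in KO, and the Tmprss6 difference -0.14. Without libraries 8 and 11, KO against WT after PHx was -0.0198 for Spint2 and 0.18 for Tmprss6, the response in KO was 0.0362 for Prss23 and -0.62 for Tmprss4, and the difference was 0.16 for Prss23, -0.62 for Tmprss2 and -1.67 for Tmprss4. With time covariates the difference was -0.21 for Tmprss4 and -0.0848 for Tmprss6, and with the replicate block -2.24 for Tmprss4. Leaving out single libraries gave ranges of -0.0247 to 0.22 (Spint2) and -0.53 to 0.0157 (Tmprss6) for KO against WT after PHx, -0.51 to 0.0743 (Prss23) and -0.0858 to 0.60 (Spint1) for the response in WT, -0.17 to 0.11 (Spint2) and -0.38 to 1.65 (Tmprss4) for the response in KO, and -0.50 to 0.26 (Prss23), -1.42 to 0.98 (Tmprss4) and -0.24 to 0.26 (Tmprss6) for the difference. The cause was not tested. Low counts limit Prss22, Tmprss4, St14 and Spint1 in WT, where 0 to 74 reads were counted per group.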
